A study of Mus musculus with 6 samples.

Results

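The genes described here belong to the cellular stress response: the transcription factors Atf3, Atf4, Atf5, Atf6, Xbp1 and Ddit3 (which encodes CHOP), the endoplasmic reticulum (ER) stress gene Herpud1, and the tribbles pseudokinase gene Trib1. They were chosen by symbol out of 13724 gene entries. The choice named 9 symbols, of which 8 are described and the other, Trib3, was not analysed here. All samples came from wild type C57Bl6/J mice that were exposed to warmth in 3 numbered challenges, with no group at another temperature. From the anterior hypothalamus, a dissected block that the labels call preoptic neurons, each challenge gave 1 library of total RNA (input) and 1 of RNA pulled down with an antibody to ribosomal protein S6 phosphorylated at residues 244 and 247 (IP). This method, phosphoTRAP, draws out transcripts on the ribosomes of recently active neurons. The age of the mice and the number of animals behind a library were not given in the sources used here, so the spread between libraries may be technical in part.

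Misfolded protein in the ER is sensed by 3 membrane proteins, PERK, IRE1 and ATF6. PERK phosphorylates the initiation factor eIF2alpha, which slows most translation while the upstream open reading frames of the Atf4, Atf5 and Ddit3 messengers let ribosomes reach their coding regions. IRE1 splices the Xbp1 messenger into the form that encodes an active factor, and ATF6 is cut in the Golgi to release its own. ATF3 lies downstream of ATF4, and in neurons it is also an immediate early gene and a marker of injury. A gene-level value does not separate spliced from unspliced Xbp1, and levels of RNA do not report the cleavage of ATF6 or the phosphorylation of eIF2alpha.

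Levels are in RPKM, reads per unit of gene length and of library size. Summed RPKM lay between 374708 and 496125 per library, and the absolute read depth is unknown. The summed level of neuronal markers (5 of 6 analysed) was 3303 to 4684 RPKM in input and 2761 to 6225 RPKM in IP. Most of it was Snap25 alone, at 2790 to 4144 RPKM in input and 2063 to 5392 RPKM in IP. Of the 5 markers, 0 passed the threshold given below and 1 had an unadjusted p under 0.05 by limma, against 24.4% of all genes. Markers of oligodendrocytes, astrocytes and red blood cells were also listed. Since the tissue was bulk, fewer cells of a type and less RNA per cell cannot be told apart in the level of any library. In a difference between IP and input, how many cells of a type gave RNA to the IP and how much each gave cannot be told apart either. Over all genes, 516 of 12328 tested passed the threshold (adjusted p under 0.05 by limma on log2(RPKM + 1), Benjamini-Hochberg over all genes tested), which is 4.19%. Of these, 110 (0.892%) were higher and 406 (3.29%) lower in IP, or 114 and 103 after each library was scaled to a common median. That scaling moved the median log2 fold of all genes from -0.18 to -0.0053.

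Of the 8 stress genes, Atf3 had the largest log2 fold of IP against input and Trib1 the next, and both had a higher mean in IP. None of the 8 passed the threshold in the limma fit without pairing, while 2 of 8 (Atf3 and Trib1) had an unadjusted p under 0.05, against 24.4% of all genes. With a call rate of 4.19% over all genes, no call among 8 is not a result about them. When the challenge number was a block in the fit, 1 of 8 passed, Atf3, which was higher in IP, as 1.33% of all genes were, and 5.32% passed in either direction. That call is limited in that Atf3 met the filter on low values through its IP libraries and that the fit rests on the labelled pairs, which the values did not show for challenge 1. Without IP 1 and without the block, 0 of the 8 passed and 13.8% of all genes did, which again is not a result about the 8. The median log2 fold of the 8 was -0.019 and that of all genes -0.18. For Atf4, Atf5 and Ddit3 the ratio of IP to input lay on both sides of 1 across the 3 challenges.

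**Figure D1:**
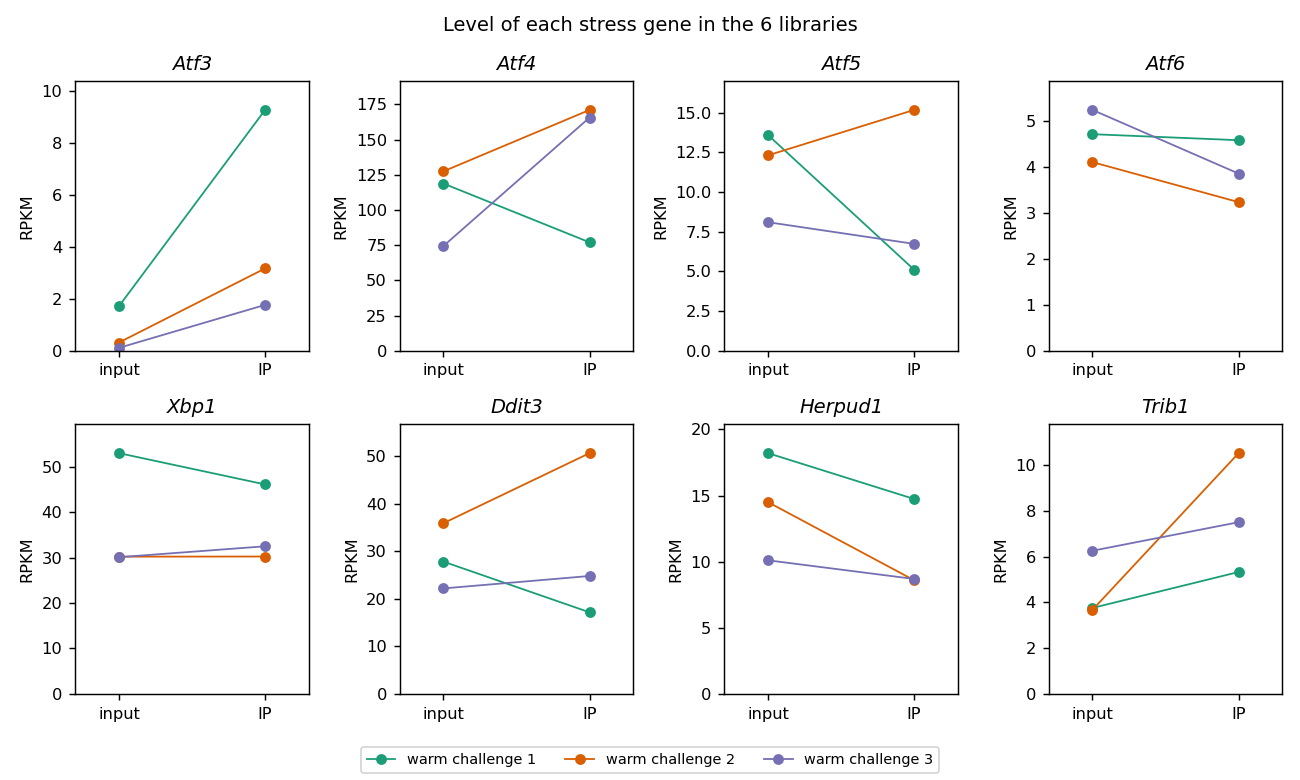
Each panel shows 1 gene, with RPKM on a linear axis from 0, input at left and IP at right, and a line joining the 2 libraries of each warm challenge. The 3 Atf3 lines climb from input to IP, those of Atf4, Atf5, Xbp1 and Ddit3 run in both directions, and those of Atf6 and Herpud1 slope down.

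Atf3 was the scarcest of these transcripts in input. It stood at 1.71, 0.314 and 0.11 RPKM in inputs 1, 2 and 3, the last value just above the floor of 0.1 RPKM under which the table lists no gene. In IP 1, 2 and 3 it stood at 9.25, 3.16 and 1.76 RPKM. Every IP library thus lay above every input, although IP 3 exceeded input 1 by very little, and challenge 1 was the highest in both fractions. Among all genes tested, 6.85% had IP libraries wholly above the inputs. Within a challenge, IP exceeded input 5.41-fold, 10.1-fold and 16.0-fold in order, and 14.0% of all genes were higher in IP in 3 of 3 pairs.

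On the log2(RPKM + 1) scale the Atf3 difference was 1.63 (SE 0.49, 95% interval 0.54 to 2.72, adjusted p = 0.0862 by limma). In the blocked fit the same difference had an SE of 0.21 and an adjusted p = 0.0216. It also passed with the block when challenge 2 was left out (adjusted p = 0.0330, in a fit that called 1.02% of all genes) and when challenge 3 was (9.14% of all genes called), and without challenge 1 it did not reach the filter. Leaving out any 1 library without the block gave 1.10 to 2.05, with an adjusted p of 0.0826 to 0.248. The pseudocount compresses the fold of such a scarce gene: the difference was 2.83 with a pseudocount of 0.1 RPKM and 0.70 with 5 RPKM. Atf3 reached 1 RPKM in 4 libraries, the 3 IP libraries and input 1, so it entered the test through the fraction where it was high. With the block and no filter, an alternative added after the data were seen, its adjusted p was 0.0230 (1.02% of all genes higher in IP), against 0.0916 with neither. Its mean was 0.711 ± 0.871 RPKM over the inputs and 4.73 ± 3.98 RPKM over the IP libraries (SD, n = 3 each). By these means it lay above 6.33% of listed genes in input and above 38.7% in IP. By library it lay above 16.0%, 1.89% and 0.0364% in inputs 1, 2 and 3, and above 55.6%, 32.2% and 21.6% in IP 1, 2 and 3.

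Cell type markers also differed between the fractions, in both directions. Of 8 oligodendrocyte markers 6 were lower in IP (summed level 1039 to 1165 RPKM in input, 355 to 530 RPKM in IP), and the 3 red blood cell markers tested were all higher (14.1 to 50.3 and 202 to 567 RPKM). Over all genes, 3.29% were lower and 0.892% higher in IP. Only values above 0.1 RPKM are listed, so the absence of a marker from a library could not be seen. The part of these markers in the Atf3 difference was not tested. Of the 6 astrocyte markers 0 passed by limma without the block and 2 had an unadjusted p under 0.05. In the blocked fit 1 was lower (the water channel Aqp4, adjusted p = 0.0400, named after its values were seen), against 492 of all 12328 genes. Without IP 1, 2 were lower, against 10.2% of all genes. Of ependymal markers 1 of 3 was lower in IP, of microglial markers 0 of 2 passed with none at an unadjusted p under 0.05, and no endothelial marker reached the filter.

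Activity-induced genes, the group to which Atf3 also belongs as an immediate early gene, were mostly higher in IP. Of 18 tested, Atf3 not counted, 13 were higher in IP and 0 lower, against 0.892% and 3.29% of all genes. Their median log2 fold was 1.79. The largest were Fosb (log2 fold 4.08, adjusted p = 0.000308), Fosl2 (3.01, adjusted p = 0.00131), both AP-1 subunits, and the neurotrophin Bdnf (2.86, adjusted p = 0.0122 by limma). Fosb and Fosl2 passed in each of the 6 omissions of a library, while Bdnf did not without input 2 (adjusted p = 0.0608) or input 3 (0.0509). The Atf3 difference was 1.63 at the pseudocount of 1 RPKM used for this median, 0.70 at 5 RPKM and 2.83 at 0.1 RPKM. ATF3 also lies downstream of ATF4 and marks injury. The median log2 fold was 0.13 for the targets of ATF4 and CHOP and 0.25 for the injury and early stress genes. What drove the Atf3 difference was not tested. The genes whose pattern over the 6 libraries was most like that of Atf3 were Rnf128 (Pearson r = 0.990), Kpna2 (0.990) and Kcnk9 (0.983), a description over 6 libraries that share the split into fractions. Rnf128, for example, stood at 6.94, 4.96 and 4.50 RPKM in the inputs and 19.7, 9.85 and 8.15 RPKM in the IP libraries, with challenge 1 the highest and challenge 3 the lowest in both fractions, as for Atf3.

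The promoters of Atf3 and Herpud1 are shown because they share a stress element, a pair picked after the values were seen. Their log2 folds were 1.63 and -0.39, neither past the threshold without the block (adjusted p = 0.0862 and 0.441 by limma). The Herpud1 interval crossed 0, so opposite directions are not shown. RefSeq promoter windows (GRCm38.p6, 250 bases before to 50 after the start) were matched for 6 of the 8 genes, in 7 windows. Capitals mark the C/EBP-ATF response element bound by ATF4 (CARE, TGATGNAA or its reverse complement) and, in Herpud1, the ER stress response element II (ERSE-II: ATTGG, any base, then CCACG). Both runs cover the 150 bases before the start, 5′ to 3′ on the gene's strand, chr1:191183334-191183483 on the minus strand for Atf3 and chr8:94386279-94386428 on the plus strand for Herpud1.
Atf3: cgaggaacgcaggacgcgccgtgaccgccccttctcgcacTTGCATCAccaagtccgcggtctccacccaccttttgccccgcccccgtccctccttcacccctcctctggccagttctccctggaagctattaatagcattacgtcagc
Herpud1: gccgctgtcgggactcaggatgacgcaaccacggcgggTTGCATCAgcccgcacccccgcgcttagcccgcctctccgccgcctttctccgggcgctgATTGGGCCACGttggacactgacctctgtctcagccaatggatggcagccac

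The same 8 letters, TTGCATCA, began 110 bases before the Atf3 start and 112 bases before the Herpud1 start, on the strand opposite to the motif as spelled. A CARE match was held by 3.97% of 32851 RefSeq promoter windows of this length, and an ERSE-II match by 0.0365%. The 237 tested genes with a CARE match had a median log2 fold of -0.095, against -0.18 for the 8520 tested genes with a promoter window. Of the other motifs searched on both strands, the full cAMP response element (TGACGTCA, 1.79% of windows), the first ER stress response element (CCAAT, any 9 bases, then CCACG, 0.119%) and the UPR element (TGACGTGG, 0.676%) had no match in the windows of these 6 genes. A match is a string of letters and not a measured binding site.

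Atf4, the main factor of the integrated stress response, was the most abundant of the 8 in both fractions. It stood at 119, 127 and 74.4 RPKM in inputs 1, 2 and 3 and at 77.0, 171 and 166 RPKM in IP 1, 2 and 3. The groups overlapped: IP was below input in challenge 1 (0.648-fold) and above it in challenges 2 and 3 (1.34-fold and 2.23-fold). Its log2 fold was 0.32 (SE 0.36, 95% interval -0.50 to 1.13, adjusted p = 0.639 by limma), an interval that reaches from 0.709-fold to 2.19-fold on the RPKM + 1 scale. With the block and challenge 1 left out, Atf4 passed as higher in IP (log2 fold 0.78, adjusted p = 0.00187), in a fit with 1 residual degree of freedom that called 34.6% of all genes. The same fit gave 0.26 (adjusted p = 0.896) without challenge 2 and -0.099 (adjusted p = 0.915) without challenge 3. Leaving out 1 library without the block gave 0.076 (input 3) to 0.69 (IP 1). Its mean lay above 94.6% of listed genes in input and 95.9% in IP.

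Atf5, a relative of Atf4 under the same kind of translational control, stood at 13.6, 12.3 and 8.10 RPKM in inputs 1, 2 and 3 and at 5.10, 15.2 and 6.73 RPKM in IP 1, 2 and 3. IP was lower than input in challenges 1 and 3 and higher in challenge 2. The log2 fold was -0.40 (SE 0.36, 95% interval -1.22 to 0.41, adjusted p = 0.534 by limma), and ran from -0.82 without IP 2 to -0.11 without IP 1.

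Ddit3, whose product CHOP drives the late, death-linked arm of the response, stood at 27.8, 35.9 and 22.2 RPKM in the inputs and at 17.2, 50.7 and 24.8 RPKM in the IP libraries. Challenge 2 had the highest value in both fractions, and the IP values spanned those of the inputs. The log2 fold was -0.0092 (SE 0.37, 95% interval -0.84 to 0.82, adjusted p = 0.993 by limma), and its sign turned under median scaling (0.17) and quantile normalization (0.069). It ran from -0.43 without IP 2 to 0.33 without IP 1.

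These 3 genes had one order of libraries in common. In each of Atf4, Atf5 and Ddit3, IP 1 was the lowest and IP 2 the highest IP library, and input 3 was the lowest input. The other 5 stress genes did not have this order, which 12.7% of all genes tested had and which was noticed after the values were seen. The genes most like Atf4 over the 6 libraries were Pigyl (Pearson r = 0.998), Dpm2 (0.996) and Ppdpf (0.995), and those most like Ddit3 were Taf11 (0.994), Mrps26 (0.992) and Nrip2 (0.992). Pigyl, for example, stood at 45.7, 54.3 and 22.1 RPKM in the inputs and 24.0, 91.3 and 89.1 RPKM in the IP libraries.

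Xbp1, the target of IRE1, had nearly equal levels in both fractions. It stood at 53.0, 30.2 and 30.1 RPKM in inputs 1, 2 and 3 and at 46.1, 30.2 and 32.5 RPKM in IP 1, 2 and 3. Challenge 1 was the highest in both fractions, and the ratio of IP to input lay between 0.870 and 1.08 in the 3 challenges. The log2 fold was -0.029 (SE 0.28, 95% interval -0.67 to 0.61, adjusted p = 0.968 by limma), and 0.14 after median scaling. It ran from -0.21 without IP 1 to 0.24 without input 1. The interval leaves room for a level in IP from 0.629 to 1.53 times that in input.

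Atf6, the sensor that is itself a transcription factor, stood at 4.72, 4.11 and 5.25 RPKM in the inputs and at 4.59, 3.24 and 3.86 RPKM in the IP libraries. IP was lower than input in 3 of 3 challenges, as in 37.5% of all genes, while the groups overlapped. The log2 fold of -0.22 (SE 0.22, adjusted p = 0.573 by limma) was close to the median of all genes, and it was -0.048 after median scaling and 0.012 after quantile normalization. Of the 8 genes it had the smallest spread between libraries in RPKM, with an SD of 0.569 RPKM in input and 0.676 RPKM in IP.

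Herpud1, an ER membrane protein that assists the degradation of misfolded proteins and a classic target of the response, stood at 18.2, 14.5 and 10.1 RPKM in the inputs and at 14.7, 8.60 and 8.69 RPKM in the IP libraries. IP was lower in 3 of 3 challenges, as in 37.5% of all genes, by ratios of 0.810, 0.593 and 0.860. The groups overlapped because IP 1 exceeded inputs 2 and 3. The log2 fold was -0.39 (SE 0.29, 95% interval -1.04 to 0.25, adjusted p = 0.441 by limma), and -0.22 after median scaling. It ran from -0.63 without IP 1 to -0.21 without input 1. The genes most like it were Ddrgk1 (Pearson r = 0.992), Fam134a (0.989) and Rcn1 (0.989) over the 6 libraries. Rcn1, which encodes a calcium-binding protein of the ER lumen, stood at 13.5, 9.50 and 6.50 RPKM in the inputs and 8.99, 5.17 and 4.92 RPKM in the IP libraries.

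Trib1, a pseudokinase that brings C/EBP factors to a ubiquitin ligase, stood at 3.75, 3.67 and 6.25 RPKM in inputs 1, 2 and 3 and at 5.33, 10.5 and 7.50 RPKM in IP 1, 2 and 3. IP was higher in 3 of 3 challenges, as in 14.0% of all genes, by 1.42-fold, 2.86-fold and 1.20-fold. The groups overlapped at input 3 and IP 1. The log2 fold was 0.65 (SE 0.29, 95% interval 0.00055 to 1.29, adjusted p = 0.205 by limma, and 0.156 with the block). With the block and 1 challenge left out, it passed without challenge 1 (adjusted p = 0.0137) and without challenge 3 (0.0460), in fits that called 34.6% and 9.14% of all genes, and not without challenge 2 (log2 fold 0.32, adjusted p = 0.790). Leaving out IP 2 alone gave 0.43. Its relative Trib2, named after its values were seen, stood at 11.1, 13.9 and 14.8 RPKM in the inputs and at 12.5, 48.0 and 44.9 RPKM in the IP libraries. IP 1 was within the range of the inputs and the other two lay far above it (log2 fold 1.14, SE 0.44, adjusted p = 0.156 by limma).

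**Figure D2:**
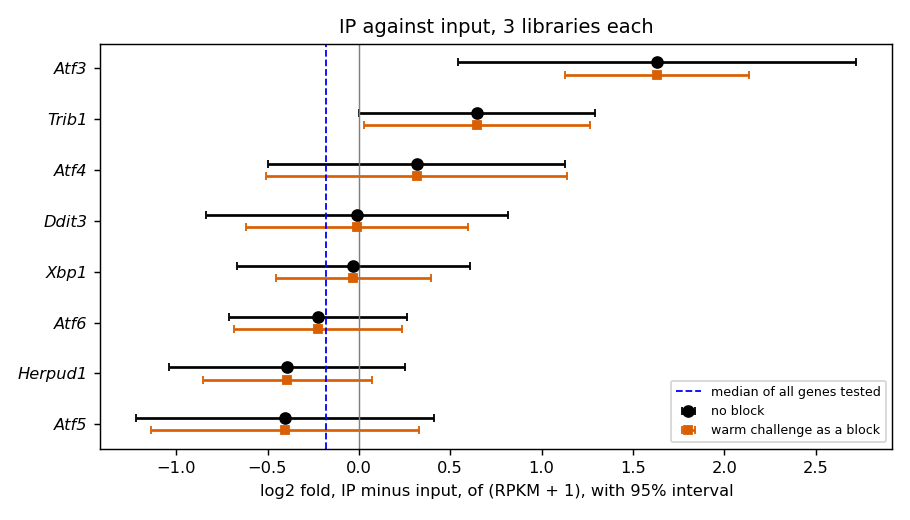
Points give the log2 fold of IP against input on the (RPKM + 1) scale for the 8 genes, with 95% intervals from limma without a block (black circles) and from the fit with a block for the challenge number (orange squares). The dashed line is the median of all genes tested (-0.18). The Atf3 interval lies to the right of 0 in both fits and narrows with the block, the Trib1 interval begins close to 0, and the other 6 cross it.

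Across the 8 genes, levels ran in much the same order in both fractions. In input the order was Atf4 (107 ± 28.5 RPKM, SD, n = 3), Xbp1 (37.8 ± 13.2), Ddit3 (28.6 ± 6.90), Herpud1 (14.3 ± 4.06), Atf5 (11.3 ± 2.87), Atf6 (4.69 ± 0.569), Trib1 (4.56 ± 1.47) and Atf3. Neighbours overlapped between Xbp1 and Ddit3, Herpud1 and Atf5, and Atf6 and Trib1. In IP the first 5 places were the same, from Atf4 (138 ± 52.8 RPKM) to Atf5 (9.003 ± 5.40 RPKM). Trib1 (7.78 ± 2.61 RPKM) and Atf3 then came before Atf6 (3.90 ± 0.676 RPKM), and the libraries of every neighbouring pair from Herpud1 to Atf6 overlapped.

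**Figure D3:**
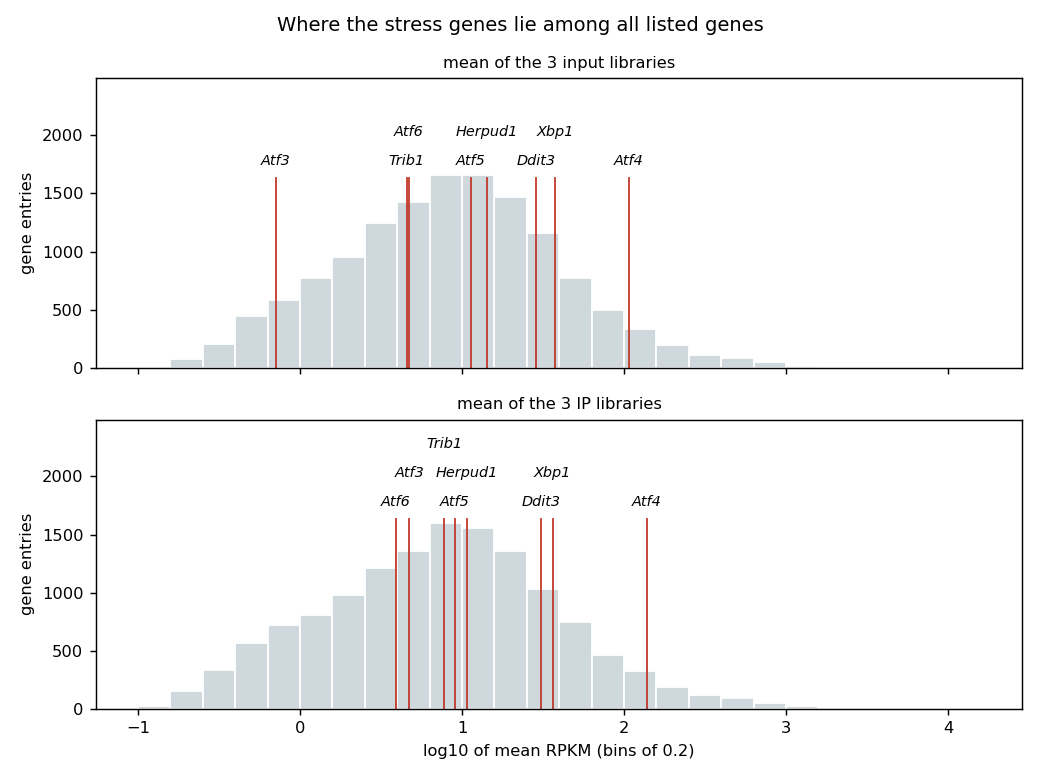
Grey bars count all 13724 listed gene entries by the log10 of their mean RPKM, for the 3 input libraries above and the 3 IP libraries below, and red lines mark the 8 stress genes. Atf3 sits in the low tail in input and near Atf6 in IP, while Atf4, Xbp1 and Ddit3 stay in the upper part in both.

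The genes around these factors were read from 9 lists of textbook pathway members. The counts below stand beside the shares over all genes: 4.19% passed over the 6 libraries, and 13.8% (10.2% as lower in IP) without IP 1. An unadjusted p under 0.05 by limma over the 6 libraries was held by 24.4% of all genes. Of 14 sensors and regulators of eIF2alpha phosphorylation tested, 0 passed by limma and 2 had an unadjusted p under 0.05, with a median log2 fold of -0.22. Eif2ak3, which encodes PERK, stood at 1.74, 1.29 and 1.90 RPKM in the inputs and 2.33, 1.06 and 0.785 RPKM in the IP libraries (log2 fold -0.19, adjusted p = 0.708, and 0.14 after quantile normalization). Ern1, which encodes IRE1, reached 1 RPKM in 1 library only and was not tested. It stood at 0.8, 0.672 and 0.685 RPKM in the inputs and 1.20, 0.293 and 0.780 RPKM in the IP libraries. The smallest p values of the list belonged to Mbtps2, the protease that releases ATF6 (log2 fold -0.60, adjusted p = 0.180), and the antiviral kinase Eif2ak2 (-0.64, adjusted p = 0.199). Mbtps2 passed as lower without IP 1 (adjusted p = 0.0438).

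Among 33 targets of ATF4 and CHOP, 2 were lower in IP, 0 higher and 31 short of the threshold. The median log2 fold of this list was 0.13. The lower ones were Ddit4 and Psat1. Ddit4, an inhibitor of mTORC1 that several stresses induce, stood at 18.5, 14.4 and 14.0 RPKM in the inputs and 3.08, 5.44 and 3.74 RPKM in the IP libraries. No IP library came near an input, and the log2 fold was -1.73 (SE 0.24, adjusted p = 0.0127 by limma). Its adjusted p was 0.0816, 0.0608 and 0.0501 without input 1, 2 and 3. Psat1, an enzyme of serine synthesis, stood at 63.4, 58.6 and 63.8 RPKM in the inputs and 27.7, 29.2 and 32.5 RPKM in the IP libraries (log2 fold -1.03, SE 0.20, adjusted p = 0.0328). Psat1 kept its call in the omission of IP 1 alone (adjusted p 0.0782 to 0.153 in the other 5), and did not pass after median scaling (0.0636) or quantile normalization (0.0507). Without IP 1 the list had 5 lower and 0 higher genes of 33, where 10.2% of all genes were lower.

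ER chaperones and folding enzymes had 0 of 27 past the threshold by limma, 4 with an unadjusted p under 0.05 and a median log2 fold of -0.040, which was 0.13 after median scaling. Hspa5, the chaperone BiP that holds the sensors inactive, stood at 69.7, 55.8 and 75.1 RPKM in the inputs and at 190, 96.9 and 103 RPKM in the IP libraries. Its IP libraries lay wholly above the inputs, as in 6.85% of all genes, with IP 1 well above the other IP libraries. The log2 fold was 0.89 (SE 0.30, 95% interval 0.21 to 1.57, adjusted p = 0.115 by limma, and 0.0762 with the block). The oxidase Ero1l had the smallest p of the list and the opposite sign (log2 fold -0.91, adjusted p = 0.0834, and 0.0158 without IP 1), followed by Fkbp14 (-0.64, adjusted p = 0.0985).

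Degradation and import at the ER had no calls over the 6 libraries without the block. Of 22 genes of ER-associated degradation 0 passed by limma, 3 had an unadjusted p under 0.05 and the median was -0.25. Derl2, a channel component, was at a log2 fold of -0.68 (adjusted p = 0.130, or 0.0368 without IP 1), and Vcp, the ATPase that extracts substrates, 0.60 (adjusted p = 0.181). Of 27 genes of ER translocation 0 passed without the block, 5 had an unadjusted p under 0.05, and the median was -0.18. In the blocked fit 1 of the 27 was lower, against 492 of all 12328 genes, which is not a result about the list. It was Tram1 (log2 fold -0.95, adjusted p = 0.0459, and 0.146 without the block), named after its values were seen. Ssr3, a translocon subunit, had -0.84 (adjusted p = 0.0703) and Sec63 -0.93 (adjusted p = 0.0808), and both passed as lower without IP 1 (0.0447 and 0.0265), when 4 of 27 did, against 10.2% of all genes.

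The list of other bZIP factors, which also holds Trib2, and that of cell death genes had 0 of 12 and 0 of 16 past the threshold by limma. In each list 8 had an unadjusted p under 0.05, against 24.4% of all genes, and these lay in both directions. The median log2 folds were -0.14 and -0.29. Cebpg, a partner of ATF4, was at a log2 fold of -0.79 (adjusted p = 0.0708, or 0.0321 without IP 1), and Nfil3, a repressor of the same family, 0.97 (adjusted p = 0.0929). Of the death genes, Bid had -0.85 (adjusted p = 0.0635) and the stress kinase Mapk8 -0.66 (adjusted p = 0.0992). Without IP 1 both were lower (0.0318 and 0.0494), as 3 of the 16 were, against 10.2% of all genes.

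Injury and early stress genes held most of the calls among the stress lists. Of 15 tested, 4 were higher and 1 (Ddit4 again) lower in IP, 10 missed the threshold, and the median log2 fold was 0.25. The list was mixed, with a log2 fold above 0 in 8 of 15. Klf6 (-0.76), Sox11 (-0.56), Stmn2 (-0.53), Gadd45a (-0.44), Hspb1 (-0.32) and Gap43 (-0.28), named after their values were seen, lay below 0 without passing. Gadd45b, a stress and activity-induced growth arrest gene, stood at 1.47, 2.41 and 2.07 RPKM in the inputs and 4.06, 17.4 and 25.1 RPKM in the IP libraries (log2 fold 2.19, SE 0.52, adjusted p = 0.0484). Jun, an AP-1 subunit that partners ATF3, stood at 13.0, 12.8 and 8.19 RPKM in the inputs and 28.3, 58.3 and 39.8 RPKM in the IP libraries (log2 fold 1.77, SE 0.30, adjusted p = 0.0231). Both calls held in the omission of IP 1 alone, with an adjusted p of 0.116 to 0.178 for Gadd45b and 0.0631 to 0.0903 for Jun in the other 5. Gadd45b also missed the threshold after median scaling (0.0553), with a pseudocount of 5 (0.0645), without the filter (0.0569) and without the trend (0.0526). The other 2 higher genes, named after their values were seen, were the cell cycle inhibitor Cdkn1a (log2 fold 1.68, adjusted p = 0.0127) and Ier3 (1.34, adjusted p = 0.0426).

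**Figure D4:**
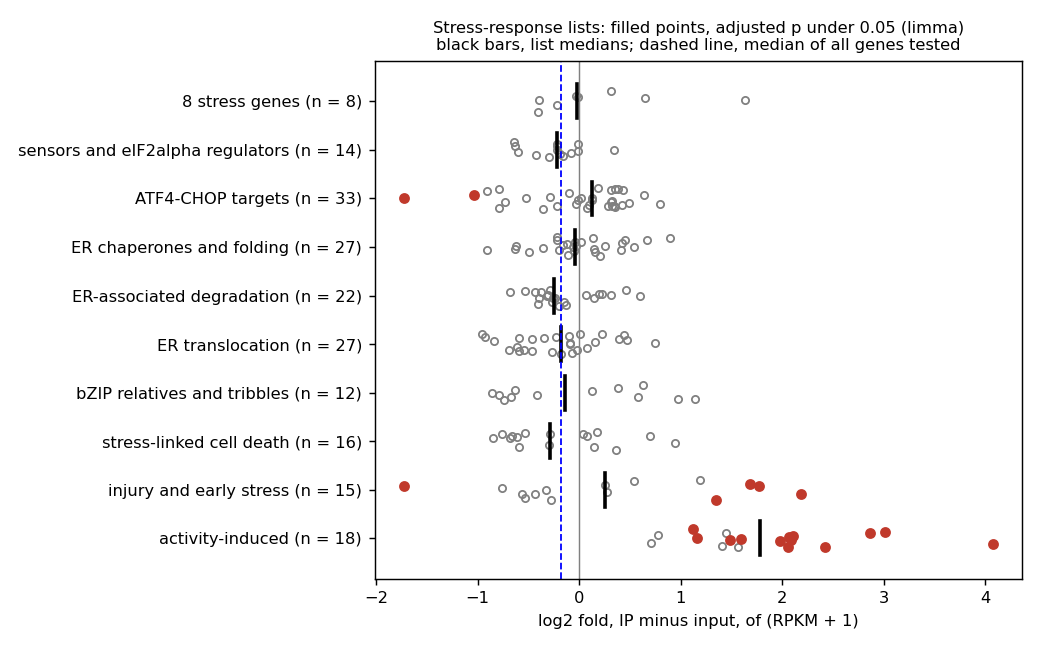
Each circle is 1 gene placed by its log2 fold of IP against input on the (RPKM + 1) scale, in rows for the 8 stress genes and the 9 lists around them, with filled red circles for an adjusted p under 0.05 by limma without a block. Black bars are medians, and the dashed line is the median of all genes tested. The 5 ER and ATF4 lists have medians between -0.25 and 0.13, with Ddit4 and Psat1 as their only filled circles, and the activity-induced row lies wholly to the right of 0.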

How the data were processed

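The deposited values are linear RPKM per gene in 1 table, as the authors state in the file headers, each library in its own column. Reads were placed on mm9 according to the submitters' processing notes. Which aligner, counter and annotation were used is not given in the sources used here. Every listed value exceeds 0.1 RPKM. The lowest values (under 0.6 RPKM) were searched for whole-read steps, but at the best scale 14.4% to 17.3% of ratios to input 1 lay within 1% of whole-number ratios, so no depth was taken from them.

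The test used log2(RPKM + 1) of the 12328 entries with at least 1 RPKM in 3 of 6 libraries, all 8 stress genes among them, with limma 3.58.1 (mean-variance trend, two-sided) in R 4.3.3, fitted and adjusted over the whole table and tested on simulated data. Fold changes on this scale understate those of scarce genes. Python 3.11.15, pandas 2.3.3 and matplotlib 3.10.9 served for counts, motif searches and plots.

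Input and IP of a number share a warm challenge in the labels and were taken as paired on that ground. Deviations from group means correlated within pairs by 0.055, 0.61 and 0.27 across genes. For challenge 1 the values do not show the pairing: input 1 correlated more with IP 2 (0.16), and IP 1 with input 3 (0.18), than with each other. The file's own column tags for that challenge are also not consecutive, unlike those of the other two. The fit without the block is the one reported unless the block is named. Alternatives were 2 scalings, 2 pseudocounts, 2 filters, no trend, the block and each library left out.

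The stress genes and lists were chosen with earlier results of these data known. Beside the 8 genes, the text names Eif2ak3, Ern1, Hspa5 and, per list, the 3 called genes with the largest fold or the 2 with the smallest p; likeness is the 3 highest correlations for Atf3, Atf4, Ddit3 and Herpud1. Promoter windows came from RefSeq (GRCm38.p6) and the deposited values from mm9, so they were joined by symbol only.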

Additional observations from a re-analysis of the deposited data

How the results depend on the processing

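The count of genes called in the whole table was 516 as reported, 217 after median scaling, 253 after quantile normalization and 656 with the replicate block, and ran from 21 to 1693 with 1 library left out. None of the 8 stress genes was called under any alternative without the block, though with a filter of 5 RPKM Atf3 and Atf6 were not tested. With the replicate block 1 was called, Atf3, and also 1 with block and median scaling together (adjusted p = 0.0163) or block and no filter together. Atf3 met the filter only with its IP libraries counted. The blocked fits over 2 of the 3 pairs, added with these joint settings after the data were seen, called 1 to 2 stress genes; they rest on 1 residual degree of freedom and called 4085, 121 and 1087 of all genes without challenge 1, 2 and 3, and Atf3 was not among the genes tested without challenge 1. Of 178 genes of the 9 lists, 19 were called as reported and 21 with the block, 3 to 35 with 1 library left out, and 69, 13 and 30 in the blocked fits without challenge 1, 2 and 3. The 3 was reached without input 2 and also without input 3, and the 35 without IP 1.

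Over the 29 tested genes named by rule (those named for likeness or after their values were seen are not counted here), 462 values kept sign and side of the threshold, 31 passed it anew, 29 lost it and 20 changed sign. The sign changes were in 6 genes, none of them past the threshold as reported or with the sign changed. Xbp1 had 0.14 after median scaling with or without the block, 0.073 after quantile normalization, 0.054 in the blocked fit without challenge 1 and -0.21 to 0.24 with 1 library left out. Ddit3 had 0.17, 0.069, 0.32 and -0.43 to 0.33 in the same settings, and 0.00317 with a pseudocount of 5. Atf6 had 0.012 after quantile normalization. In blocked fits over 2 pairs, Atf4 had -0.099 without challenge 3, Atf5 0.023 without challenge 1 and Eif2ak3 0.062 without challenge 3; Eif2ak3 had 0.14 after quantile normalization. The cause of these changes was not tested.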
